A study of Zea mays with 6 samples.

Results

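The small heat shock protein genes of maize were followed in mature pollen through 5 gene models, hsp18 (GRMZM2G149647), hsp18a (GRMZM2G404249), hsp18c (GRMZM2G034157), hsp18f (GRMZM2G083810) and hsp22 (GRMZM2G007729), of 39625 gene models in the deposited table. They were chosen by identifier, with earlier results of these data known but no condition on their level, and all 5 were above 0 in at least 2 libraries. Their names come from a RefSeq gene table, in which each of the 5 matched 1 gene. That table also lists hsp18 as hsp26 and hsp18a as HSP18.

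Small heat shock proteins are chaperones without ATPase activity that share an alpha-crystallin domain. They assemble into oligomers, bind partly unfolded proteins and hold them until the HSP70 and HSP101 machines refold them. Their genes are known in plants for strong induction by heat shock factors, and in maize some have been described as active during microspore development without heat. The name hsp26 is used in maize for a plastid member and hsp22 for a mitochondrial one. The gene table gives no class or compartment for hsp18a, hsp18c and hsp18f.

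RNA was sequenced from mature pollen of the inbred line B73, with 3 control and 3 heat libraries. Control plants had days of 25 °C and nights of 21 °C. Heat plants were selected at the tetrad stage, when the products of meiosis are still joined, and had 48 h with days of 35 °C and nights of 25 °C. Humidity was set to 60% in both groups. All plants then returned to the greenhouse until their pollen was mature, so the transcripts were measured well after the heat had ended. The labels call the libraries of a group biological replicates and do not say how many plants gave each one.

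Levels are in TPM, which corrects reads for gene length and gives every library the same total. The libraries held between 19086616 and 28640667 reads, recovered from the TPM values, with the controls the deeper group. All 7 pollen markers found by name, among them the profilin genes prf1, prf2 and prf3 and the pectin methylesterase gene pme1, exceeded 1 TPM, with sums of 39964 to 42210 TPM in control and 40408 to 43075 TPM in heat. The 12 markers of green tissue found summed to 1.07 to 1.95 TPM in control and 0.580 to 1.53 TPM in heat, and 3 of them were listed at 0 in every library. The 4 markers of tapetum and anther wall found summed to 2.66 to 3.38 TPM in control and 4.02 to 4.49 TPM in heat. Most of that sum was ms32, a bHLH regulator of tapetum development, which ranged from 1.36 to 1.75 TPM over the control libraries and from 3.04 to 3.23 TPM over the heat libraries. In contrast ms26 stood at 1.20 to 1.31 TPM in control and 0.641 to 1.16 TPM in heat. The level of ms23 was too low to compare, at 0.0476, 0.0288 and 0 TPM in the control libraries and 0 in all heat libraries. The part of such cells in the results below was not tested.

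Transcripts of the 5 small heat shock protein genes were rare in mature pollen, and the gene that led the 5 differed between the treatments. Further members of the family were not searched for by sequence. Of the 5 genes hsp18c and hsp18f rose, hsp18a fell, and hsp18 and hsp22 did not pass the test. The test was limma's moderated linear model on log2(TPM + 1), two-sided, with Benjamini-Hochberg adjustment over all 24654 gene models above 0 and a threshold of 0.05. Over all of these, 4.90% passed, 3.01% higher and 1.89% lower after heat. The 742 higher and 465 lower gene models became 661 and 629 without the 100 most abundant ones and 552 and 605 after quantile normalization, settings under which each of the 5 genes kept its direction. Among the 8615 gene models with at least 1 TPM in at least 3 libraries, which include 2 of the 5 genes, 20.2% passed. The median log2 fold change was 0.20 over the 5 genes, which is the value of hsp22, and -0.00059 over all gene models. In bulk pollen a smaller share of grains with a transcript and less of it per grain cannot be told apart.

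**Figure D1:**
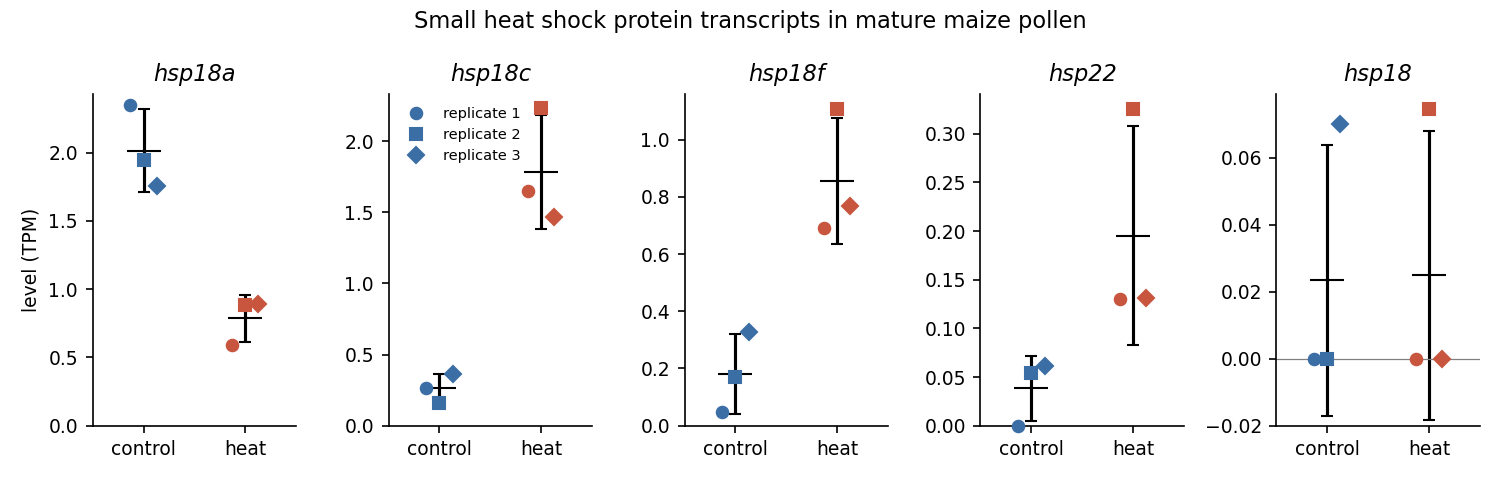
Level of each of the 5 genes in TPM on linear axes that differ between panels, for control (blue) and heat (red) libraries; symbols are single libraries, and the black marks give the mean and SD of 3. The groups are separate for hsp18a, hsp18c, hsp18f and hsp22, and hsp18 is listed at 0 in 4 of the 6 libraries. Of all 24654 gene models above 0, 20.5% had separate groups, in either direction.

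In control pollen hsp18a had the highest level of the 5 genes. It was measured at 2.35, 1.94 and 1.76 TPM in control replicates 1, 2 and 3, and at 0.589, 0.883 and 0.889 TPM in heat replicates 1, 2 and 3. Every heat library lay below every control library, a separation in that direction that 8.92% of all gene models had. The mean fell from 2.02 ± 0.30 to 0.787 ± 0.172 TPM (SD, n = 3 each), with a log2 fold change of -0.75 (SE 0.13, adjusted p = 0.0137 by limma). It was the 177th largest fall of 24654 on that scale. By mean level hsp18a went from rank 6308 among all gene models in control to rank 9104 in heat. Its call was lost without control replicate 1 (adjusted p = 0.0753), heat replicate 2 (0.0502) or heat replicate 3 (0.0565), while the log2 fold change stayed between -0.82 and -0.67 with any 1 library left out.

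After heat hsp18c led instead. It stood at 0.265, 0.160 and 0.366 TPM in the control libraries and at 1.65, 2.23 and 1.47 TPM in the heat libraries, in the order of their replicate numbers. The lowest heat library was thus well above the highest control library, and heat replicate 2 was the highest of all. A separation with heat above control was found in 11.6% of all gene models. The mean rose from 0.264 ± 0.103 to 1.78 ± 0.40 TPM (SD, n = 3 each), with a log2 fold change of 1.13 (SE 0.15, adjusted p = 0.00283 by limma). That was the 89th largest rise of 24654 gene models on the log2(TPM + 1) scale, and the mean level moved from rank 12735 in control to rank 6662 in heat. With any 1 library left out the call held, with adjusted p from 0.0136 to 0.0269.

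The same direction was measured for hsp18f at a lower level. Its control libraries had 0.0473, 0.172 and 0.326 TPM and its heat libraries 0.692, 1.11 and 0.767 TPM. The groups did not overlap, with heat above control as in 11.6% of all gene models. However, the control libraries differed from each other by more than those of hsp18c in relation to their mean. The mean rose from 0.182 ± 0.140 to 0.856 ± 0.222 TPM (SD, n = 3 each), with a log2 fold change of 0.65 (SE 0.14, adjusted p = 0.0292 by limma), the 352nd largest rise. Of the calls on the 5 genes this one was lost most often when a library was left out. The adjusted p was 0.143 without control replicate 1, 0.0867 without control replicate 2 and 0.0569 without control replicate 3. With heat replicate 2 removed it was 0.0926 and with heat replicate 3 removed 0.0900, and of the 6 removals only that of heat replicate 1 kept the call (0.0470).

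The remaining 2 genes, whose names are those of the organelle members, were near the limit of detection. The level of hsp22 was 0 in control replicate 1, 0.0537 TPM in control replicate 2 and 0.0613 TPM in control replicate 3, against 0.130, 0.325 and 0.131 TPM in the heat libraries. All heat values were above all control values, as in 11.6% of all gene models. The difference was not past the threshold (log2 fold change 0.20, SE 0.07, adjusted p = 0.163 by limma). For hsp18 a single control library (replicate 3, 0.0703 TPM) and a single heat library (replicate 2, 0.0746 TPM) had any signal. Its log2 fold change was 0.0019 (SE 0.04, adjusted p = 0.985), and with 1 read in each group a change was not detectable at this depth. The value 0 in control replicate 1 allows up to 0.133 TPM for hsp22 (3 reads), and the 4 zeros of hsp18 allow between 0.153 and 0.225 TPM.

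**Figure D2:**
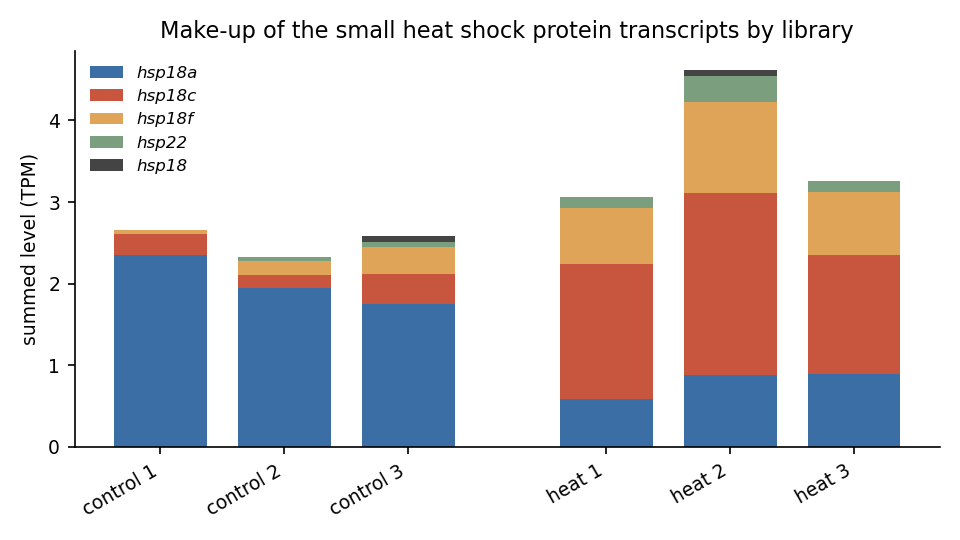
Summed level in TPM of the 5 genes in each library, with the share of each gene as a coloured segment. The hsp18a segment (blue) is the largest in the 3 control libraries and the hsp18c segment (red) the largest in the 3 heat libraries.

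Both the summed level of the 5 genes and its make-up differed between the groups. They summed to 2.66, 2.33 and 2.58 TPM in the control libraries and to 3.06, 4.62 and 3.25 TPM in the heat libraries. Every heat sum was above every control sum, and without heat replicate 2 the difference of the means went from 1.12 to 0.635 TPM. Because the genes were chosen with earlier results known, the sum was not tested.

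Within the sum, hsp18a held 88.2%, 83.5% and 68.1% in control replicates 1, 2 and 3, and 19.2%, 19.1% and 27.3% in the heat libraries. The share of hsp18c was between 6.88% and 14.2% in control and between 45.1% and 53.9% in heat. The share of hsp18f ran from 1.78% to 12.6% in control and lay within 22.6% and 24.0% in heat. A ratio of genes within 1 library does not depend on how libraries are scaled to each other. The level of hsp18c was 0.113, 0.0825 and 0.208 times that of hsp18a in the control libraries, and 2.80, 2.53 and 1.65 times in the heat libraries. In all 3 control libraries hsp18a was thus the higher of the pair, and in all 3 heat libraries hsp18c was.

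The order of the levels was less fixed below the leading gene. In control hsp18c and hsp18f changed places between libraries, with hsp18f the higher in replicate 2 and hsp18c in replicates 1 and 3, and their difference was within the spread between replicates. In heat hsp18c was between 1.91 and 2.38 times hsp18f in every library. There hsp18f and hsp18a did not separate, since hsp18f was the higher in heat replicates 1 and 2 and hsp18a in heat replicate 3. In the heat libraries hsp22 came next and hsp18 last. In control replicates 1 and 3 hsp18 was level with or above hsp22, at 1 read or none for either gene.

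The reads behind these levels were few, which limits how well the size of each change is known. The labels do not say how reads that match several family members were counted, so the split of reads between similar genes is uncertain to that extent. Over the 3 control libraries hsp18a had 78 reads and hsp18c 10, and over the 3 heat libraries they had 24 and 55. For hsp18f the numbers were 9 and 37 reads, for hsp22 2 and 9, and for hsp18 1 and 1. Pooled over libraries, the linear level of hsp18c was 6.87 times higher in heat, with an exact 95% interval from 3.47 to 15.1. For hsp18f the ratio was 5.13 (2.43 to 12.1) and for hsp22 5.62 (1.16 to 53.4). The level of hsp18a was 2.60 times higher in control (1.63 to 4.30). No ratio is given for hsp18. These intervals cover counting error only. Between replicates the chi-square statistic per degree of freedom was between 0.382 and 1.26 for all 5 genes in both groups, except for hsp18f in control at 2.07. With 3 libraries per group and so few reads, it cannot show how far replicates vary beyond counting. For hsp18, with 1 read in each group, it holds no information on spread. Over all gene models with enough reads, no pair of libraries within a group agreed within counting error (smallest value 4.59). The linear ratios are larger than the fold changes on the log2(TPM + 1) scale, which understates changes of rare transcripts.

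**Figure D3:**
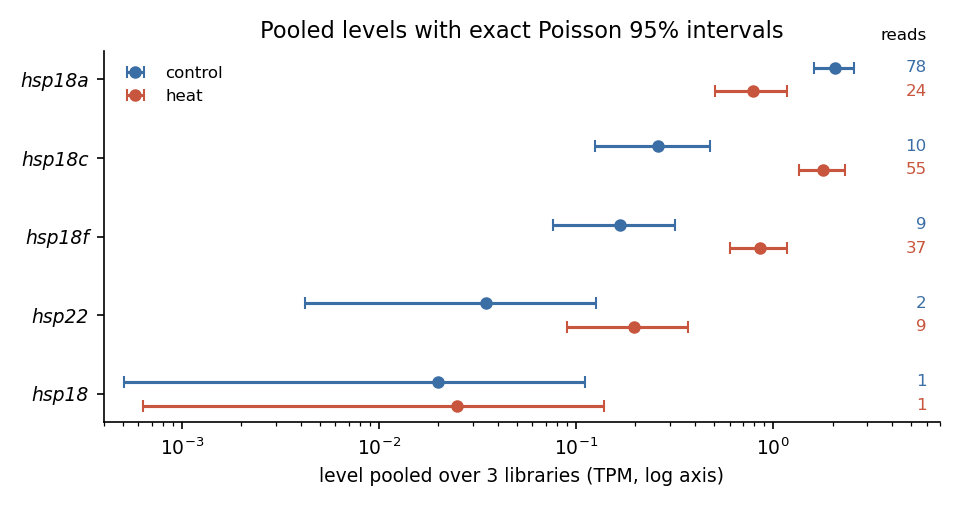
Level of each gene pooled over the 3 libraries of a group, in TPM on a log axis, for control (blue) and heat (red), with exact Poisson 95% intervals for counting error and the number of reads at the right. The intervals of the groups are apart for hsp18a, hsp18c and hsp18f and overlap for hsp22 and hsp18.

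The heat libraries were not all run with the controls. The sample sheets put all 6 libraries on 1 flow cell, the 3 controls and heat replicate 3 on 3 shared lanes and the remaining 2 heat libraries on 2 lanes of their own. Within the shared lanes, heat replicate 3 differed from the control mean by 0.97 for hsp18c, 0.59 for hsp18f, 0.12 for hsp22 and -0.67 for hsp18a on the log2(TPM + 1) scale. Heat replicates 1 and 2, on the lanes that held heat libraries alone, differed by a mean of 1.21, 0.68, 0.24 and -0.80 in the same order. The directions were thus the same in both sets of lanes, with larger differences in the lanes without controls. With the lane as a covariate none of the 5 genes passed, with log2 fold changes of 0.97 for hsp18c, -0.67 for hsp18a and 0.59 for hsp18f. Limma-voom on recovered reads, without the lane, called 3 of the 5 genes and 2069 of all 24654 gene models. The fit with the lane rests on 1 heat library and called 167 gene models in all, against 1207 without the lane. Over the 8615 better expressed gene models, among them hsp18c and hsp18a, the lane fit gave adjusted p = 0.0121 for hsp18c and 0.0611 for hsp18a. This last setting was chosen after the data had been seen. Over all alternatives the adjusted p ran from 9.50e-05 to 0.125 for hsp18c, from 0.00175 to 0.212 for hsp18a and from 0.00177 to 0.311 for hsp18f.

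**Figure D4:**
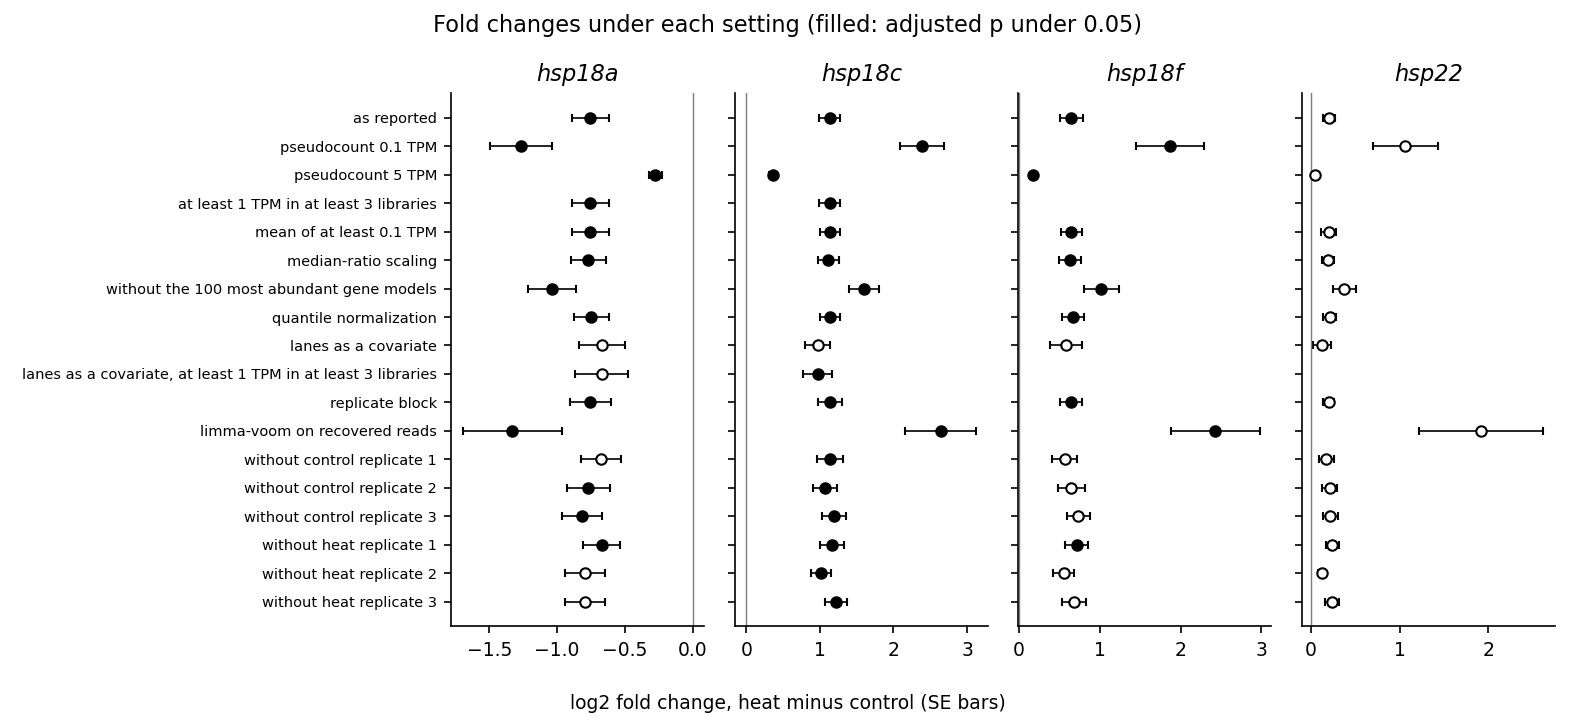
Log2 fold change, heat minus control, with its SE for 4 of the genes as reported and under each alternative; filled points have an adjusted p under 0.05, and a missing point means that the gene was not in that fit. No point crosses 0, and the calls of hsp18a and hsp18f are lost under more alternatives than that of hsp18c.

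The small heat shock protein genes act with larger chaperones and under heat shock factors, so the other genes of the heat response were set beside them. Symbols that begin like those of heat shock proteins, their transcription factors, BiP, protein disulfide isomerases and related genes picked 56 further gene models, of which 48 were above 0. Of these 5 rose, 0 fell and 43 did not pass, a share to be read against the 4.90% of all gene models. At an unadjusted limma p under 0.05 the numbers were 8 higher and 5 lower, against 2296 and 1897 of all 24654 gene models. Limma-voom on recovered reads called 7 higher and 4 lower of the 48, against 1203 and 866 of the 24654. The median log2 fold change of the 48 was 0.03. Of the 48, 6 matched by letters alone and belong to other pathways, such as carotenoid synthesis; limma and limma-voom each called 0 of those, also 0 without adjustment at 0.05.

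Among the HSP70 and BiP genes 1 of 5 rose. Hsp70 (GRMZM2G310431) was measured at 0.240, 0.0793 and 0.181 TPM in the control libraries and at 0.736, 0.800 and 0.677 TPM in the heat libraries, a log2 fold change of 0.58 (SE 0.11; limma adjusted p = 0.0163). In heat Hsp70 spanned 0.677 to 0.800 TPM, against 0.692 to 1.11 TPM for hsp18f. The call was lost without control replicate 1 (adjusted p = 0.0560), 2 (0.0650) or 3 (0.0712), without heat replicate 2 (0.0560) and with the lane (0.168). Of the 3 HSP90 gene models limma and limma-voom each called 0, and the number at 0.05 without adjustment was also 0. The disaggregase gene hsp101 did not pass in this fit without a filter (limma adjusted p = 0.0509), whereas limma-voom on recovered reads called it higher. Its means of 112.0 and 135.8 TPM were far above the level of any of the 5 small heat shock protein genes. Among 10 heat shock factor gene models above 0, Hsf01 (GRMZM2G165998, matched to 2 genes) rose from 1.16 ± 0.11 to 2.14 ± 0.33 TPM (SD, n = 3 each; limma adjusted p = 0.0433) and 9 did not pass. At an unadjusted limma p under 0.05 the numbers among these 10 were 2 higher and 3 lower, and limma-voom called 2 higher and 3 lower. Both are to be read against the counts over all gene models given above. The call of Hsf01 was lost with any 1 library left out (0.0512 to 0.153).

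The others that rose were better expressed. The protein disulfide isomerase gene pdi7 (GRMZM2G159369) went from 25.7 ± 0.58 to 37.9 ± 2.39 TPM (adjusted p = 0.00438 by limma). The name pdi4 is shared by the gene models GRMZM2G034143 and GRMZM2G033829, each matched to 2 genes. Of these GRMZM2G033829 averaged 0.0510 TPM over the control libraries and 0.0243 TPM over the heat libraries and did not pass. Named after their values were seen, the isomerase gene pdi4 (GRMZM2G034143) rose by 0.36 and the ascorbate peroxidase gene apx (GRMZM2G140667) by 0.31 on the log2 scale. Both lost their calls with any 1 library left out, with the lane, without the 100 most abundant gene models and after quantile normalization (adjusted p from 0.0543 to 0.312). A further gene model that the gene table names as a small heat shock protein (GRMZM2G158232), also named after its values were seen, averaged 0.0715 TPM over the control libraries and 0.164 TPM over the heat libraries, where all of its signal came from heat replicate 3 (limma adjusted p = 0.772). None of the 48 passed with the lane as a covariate, a fit that rests on 1 heat library. With 1 library left out between 1 and 3 were called.

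**Figure D5:**
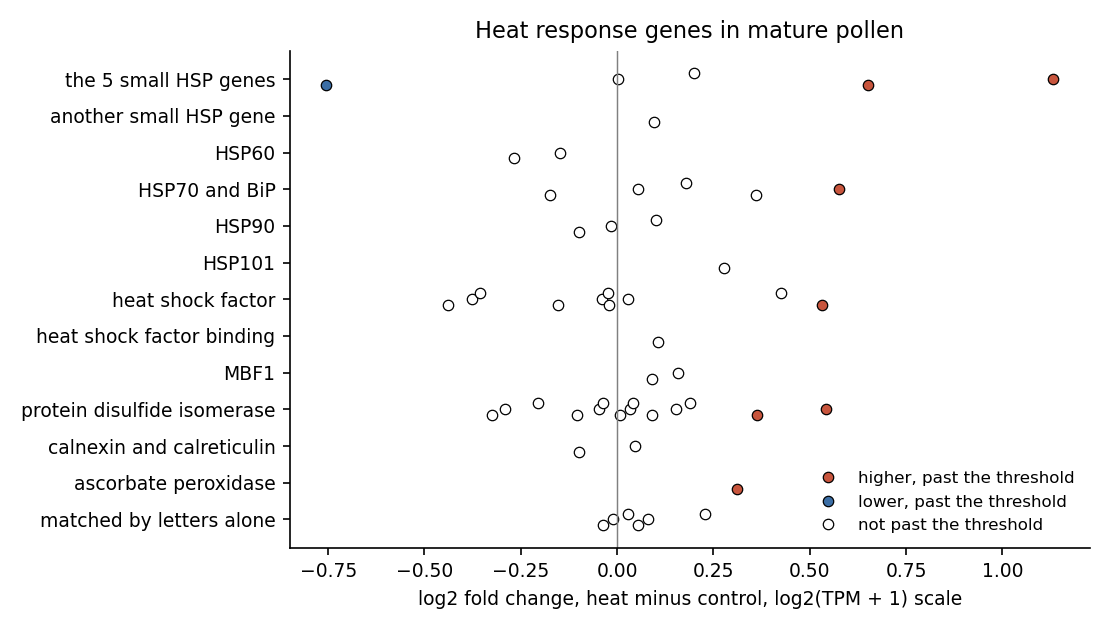
Log2 fold change, heat minus control, on the log2(TPM + 1) scale for the 5 small heat shock protein genes and the other heat response gene models above 0, by family; each point is 1 gene model and filled points passed the threshold. The 5 genes hold both the largest rise (1.13) and the largest fall (-0.75) of those plotted.

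A level of 1 TPM was crossed in both directions. Of the gene models past the threshold, 55 had a mean below 1 TPM in control and of at least 1 TPM in heat, among them hsp18c, and 81 went the other way, among them hsp18a. The patterns over the 6 libraries that were most like that of hsp18c, by Pearson's r of log2(TPM + 1) over the 8614 other gene models with at least 1 TPM in at least 3 libraries, were those of GRMZM5G848768, GRMZM2G011655 and GRMZM2G099827, each with r = 0.998. Of these only GRMZM2G011655 was as rare, with 0.568 ± 0.0917 TPM over the control libraries and 1.44 ± 0.23 TPM over the heat libraries (SD, n = 3 each). For hsp18a they were GRMZM2G077256 (r = 0.990), GRMZM2G467992 (0.989) and GRMZM2G050407 (0.989). A coefficient above 0.95 was reached by 539 gene models for hsp18c and by 59 for hsp18a. The 6 libraries fall into 2 groups that differ, so these coefficients are descriptions of the difference between the groups.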

How the data were processed

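The authors deposited TPM values for each library, per the file headers and name. Trimmomatic 0.35, FastQC, STAR 2.5.2a, featureCounts and DESeq2 and the build B73 RefGen_v3 are listed in the submitters' processing notes, without their roles. The handling of reads that map to several places and the strand setting are not given in the sources used here, so values of similar family members may share reads. Lane numbers came from the deposited sample sheets.

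Whole reads and gene lengths were recovered from the TPM values of all 24654 gene models above 0, to within 2.50e-09 reads (tolerance 0.01). They are the smallest whole numbers that match, so a common divisor may remain in rare genes. No pair of libraries within a group agreed within sampling noise (smallest chi-square per degree of freedom 4.59).

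Log2(TPM + 1) was fitted with limma 3.58.1 (R 4.3.3, intensity trend, no filter beyond a value above 0). The fit was tried on simulated data with changes only in gene models that had more reads than the 5 genes. That trial therefore does not cover calls at their level. Intervals were exact Poisson and, for ratios, exact binomial (scipy 1.17.1). The RefSeq table (assembly Zm-B73-REFERENCE-NAM-5.0) was used for names and matched 19060 gene models. The members and lists were chosen with earlier results of these data known. Genes named by rule were the 5, the other heat response genes past the threshold (at most 3 each way) and the 3 most alike patterns for genes with a mean of 1 TPM in either group. Named outside this rule, with their values known, were hsp101, the pdi4 gene models, apx and GRMZM2G158232. Alternatives were 2 other pseudocounts, filters, scalings, lanes, the replicate number as a block, limma-voom and the removal of each library.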

Additional observations from a re-analysis of the deposited data

How the results depend on the processing

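No alternative turned the direction of hsp18a, hsp18c, hsp18f or hsp22. The calls of hsp18a, hsp18c and hsp18f held, where they were fitted, with pseudocounts of 0.1 and 5 TPM, under either filter and with limma-voom. They also held under median-ratio scaling, quantile normalization and removal of the 100 most abundant gene models. The gene hsp22 was not called as reported or under any alternative. The sign of hsp18 turned, to -0.033 with the lane as a covariate, and its log2 fold change ran from -0.033 to 0.035 with single libraries left out (-0.014 without control replicate 1 or 2, -0.033 without heat replicate 2).

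In the fit with the lane, the log2 fold change was -0.67 for hsp18a, 0.97 for hsp18c and 0.59 for hsp18f, none of them past the threshold. The lane covariate with the filter gave -0.67 for hsp18a, also not past it. The cause was not tested. With single libraries left out the log2 fold change ran from -0.82 to -0.67 for hsp18a, from 1.02 to 1.21 for hsp18c, from 0.56 to 0.74 for hsp18f and from 0.12 to 0.24 for hsp22.

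Of the 5 genes 3 passed as reported, 0 with the lane, 1 with the lane and the filter, and 1 to 3 without single libraries. Of all gene models 1207 passed as reported, 167 with the lane, 654 with the lane and the filter, 2069 with limma-voom and 471 to 962 without single libraries, where fewer samples were fitted (489 without control replicate 1, 547 without control replicate 3, 519 without heat replicate 2, 471 without heat replicate 3). The split of higher and lower was 742 and 465 as reported, 661 and 629 without the 100 most abundant gene models, 552 and 605 after quantile normalization and 161 and 6 with the lane. Of the other heat response genes 5 passed as reported, 8 with a mean of at least 0.1 TPM, 3 without the 100 most abundant gene models, 3 after quantile normalization, 0 with the lane, 1 with the lane and the filter, 11 with limma-voom and 1 to 3 without single libraries.

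Correlations of deviations between control and heat libraries of the same replicate number were 0.12, 0.13 and -0.05. Between libraries of different numbers they ran from -0.25 to 0.16. With 3 libraries per group these values cannot settle whether the replicate numbers pair the libraries. With the replicate number as a block, hsp18c, hsp18a and hsp18f kept their calls (adjusted p = 0.00656, 0.0290 and 0.0333), 2 other heat response genes passed, and 1120 gene models passed in all.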
